A study of Mus musculus with 12 samples.

Results

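The helix-loop-helix gene *Neurod1*, the E protein genes *Tcf3*, *Tcf4* and *Tcf12* and the inhibitor genes *Id1*, *Id2*, *Id3* and *Id4* were followed in 4 populations of MIN6 cells, an insulinoma line from a mouse whose β cells express the SV40 T antigen. Every probe set on the 3 chips whose platform annotation gives exactly 1 of these 8 symbols was taken, which made 13 probe sets of the 36701 that are not controls, and 8 genes of 15964. *Neurod1* and the E proteins had 9 of these probe sets and the *Id* genes had 4. The populations were parental cells passaged 35 to 40 times (Pr-HP), clone 4 cells passaged 40 to 50 times (C4-HP), clone 4 cells passaged 17 to 20 times (C4-LP) and parental cells passaged 17 to 20 times (Pr-LP). All were grown in the same high-glucose medium without further treatment, and all clone 4 cells descend from 1 cell of the low-passage parental line. Pr-HP cells are the non-responder cells of the study, whose insulin secretion does not rise with glucose, and the other populations are its responder cells. Total RNA of each population was hybridised to 1 array of each of the murine U74 version 2 chips A, B and C, 12 arrays in all. The 3 responder populations are therefore not replicates of 1 condition. Anything particular to the Pr-HP culture or its arrays cannot be told apart from its loss of the secretory response to glucose.

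Class I helix-loop-helix factors, the E proteins, are made in most cell types and bind DNA as dimers at E boxes, short palindromes with the letters CANNTG. NEUROD1, a class II factor of islet and nerve cells, binds E boxes of hormone genes with an E protein as its partner and is needed for normal β-cell development. Id proteins have the helix-loop-helix but lack the basic region that contacts DNA, so that an E protein bound by an Id protein is kept from DNA, and *Id* genes are well-known early targets of bone morphogenetic protein (BMP) signals.

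The 250 bases before the start of 3 genes are given below to show the letters that these factors read, for the activator *Neurod1*, the inhibitor *Id3* and the glucagon gene *Gcg*, a known target of NEUROD1 and E proteins whose values come back further on. The sequences are those of RefSeq on GRCm38.p6, 5′ to 3′ on the strand of the gene, with each CANNTG in capitals.
*Neurod1* (chr2:79456637-79456886, minus strand): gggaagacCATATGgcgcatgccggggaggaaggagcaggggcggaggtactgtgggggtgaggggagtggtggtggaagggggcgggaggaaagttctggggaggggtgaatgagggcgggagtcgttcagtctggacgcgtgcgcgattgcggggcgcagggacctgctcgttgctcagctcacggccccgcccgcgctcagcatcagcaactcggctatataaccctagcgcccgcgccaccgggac
*Id3* (chr4:136143572-136143821, plus strand): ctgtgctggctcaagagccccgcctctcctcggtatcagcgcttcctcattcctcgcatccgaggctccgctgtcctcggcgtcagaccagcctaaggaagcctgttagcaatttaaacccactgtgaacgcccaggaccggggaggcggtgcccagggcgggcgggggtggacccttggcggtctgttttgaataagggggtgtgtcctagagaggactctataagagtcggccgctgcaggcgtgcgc
*Gcg* (chr2:62483654-62483903, minus strand): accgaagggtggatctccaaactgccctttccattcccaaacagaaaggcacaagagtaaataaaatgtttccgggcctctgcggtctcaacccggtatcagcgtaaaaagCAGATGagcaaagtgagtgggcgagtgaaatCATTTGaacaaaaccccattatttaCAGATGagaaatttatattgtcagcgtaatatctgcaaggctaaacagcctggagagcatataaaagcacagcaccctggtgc
CANNTG, which reads the same on both strands, was found once before *Neurod1*, as CATATG at position -242 from the start, and nowhere before *Id3*. It was found at 3 places before *Gcg*, as CAGATG at -139 and -83 and as CATTTG at -108. CAGATG, read on the other strand, is CATCTG, the form often described for NEUROD1 with an E protein, and either reading was searched for. Among the other genes, *Tcf3* had CACTTG at -54, *Id2* had CAGCTG at -196 and *Id4* had no match, while 2 of the 3 promoters listed for *Tcf12* had 1 match each. Of 32841 promoters of the same length in the table, 66.2% held CANNTG and 14.4% held CATCTG on either strand, so that a match to CANNTG is common. GGCGCC, a core often given for BMP-activated SMAD proteins, was in 9.59% of promoters and was found before *Id2* (-231) and *Id4* (-148), but not before *Id3* or *Neurod1*. These are matches of letters, and binding was not measured. *Id1* has no entry in the promoter table used, and *Tcf4* was not searched.

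The arrays of each chip were nearly level, with medians of 214.2 to 216 units on chip A, 161.9 to 162.7 on chip B and 92.48 to 92.94 on chip C. Values under the 20th percentile of a chip (67.29, 58.63 and 29.1 units on chips A, B and C) were raised to it as a floor before logarithms were taken. Probe sets with at least 1 array above the 40th percentile were tested, 23340 in all, among them 11 of the 13 probe sets of this family. The β-cell label was checked against 10 marker genes, of which 6 had a probe set with 1 symbol and all 6 were above the floor, with sums of 32969 units in Pr-HP, 34300 in C4-HP, 36040 in C4-LP and 34126 in Pr-LP. Without *Ins2*, whose very bright signal may lie beyond the linear range of an array, the sums were 17443 units in Pr-HP, 19380 in C4-HP, 20579 in C4-LP and 19355 in Pr-LP. Markers of macrophages summed to 2640 units in Pr-HP against 1043 to 1093 in the responder cells. This came from *Cd68*, at 1785 against 177 to 210 units, while *Cd14* had 643 units in Pr-HP against 634 to 692. *Csf1r* and *Adgre1* lay between 74.8 and 99.7 units in all 4 populations, and *Lyz2* was under the floor. Duct markers summed to 3850 units in Pr-HP against 2499 to 3135. This came from *Car2*, at 1831 against 131 to 162 units, while *Krt7* was lower in Pr-HP at 1235 against 1564 to 2085, *Sox9* had 726 against 688 to 737, and *Krt19* had 57.6, under the floor, against 56.4 to 223. For *Gapdh*, the 3′ over 5′ probe set ratio, a sign of RNA integrity, was lowest in Pr-HP on every chip, for example 0.867 on chip A while the responder cells had 0.968 to 1.05. The part of these features in the results below was not tested. In whole-culture RNA, fewer cells of a kind and less RNA per cell cannot be told apart.

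**Figure D1:**
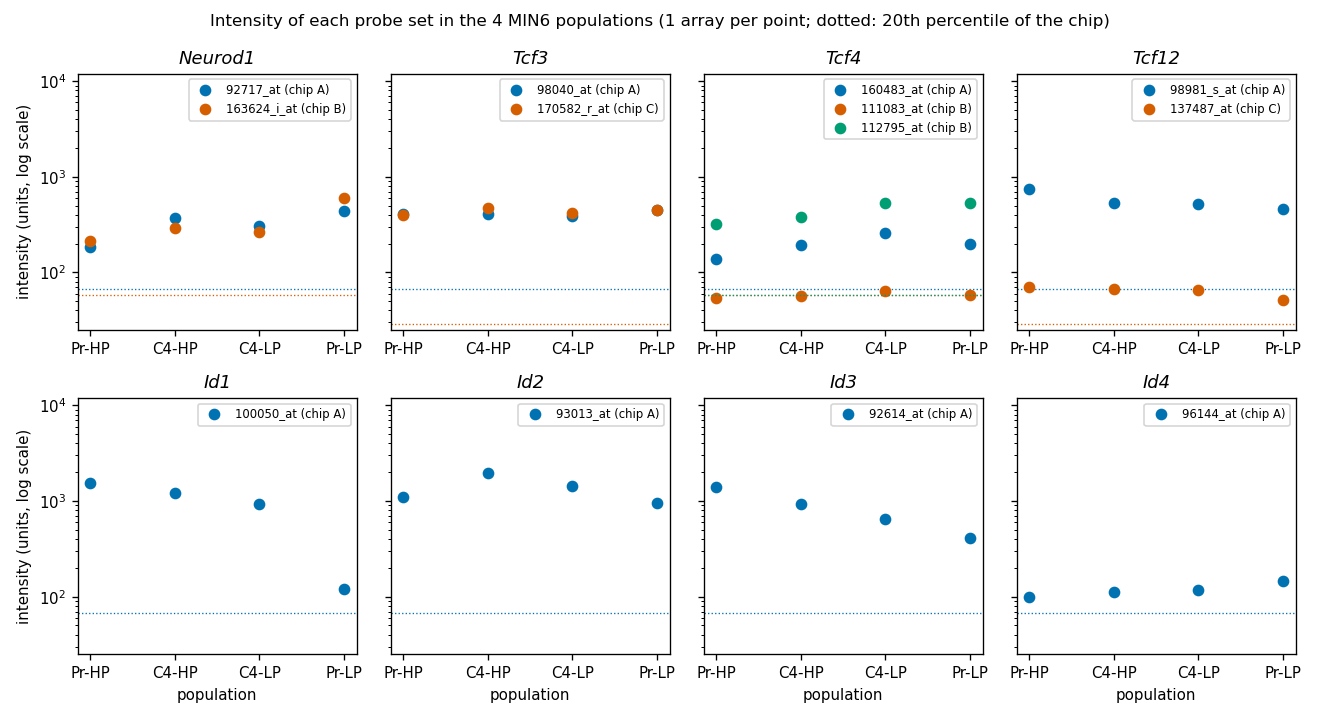
Intensity (units, log scale) of the 13 probe sets in Pr-HP, C4-HP, C4-LP and Pr-LP cells, 1 array per point, 1 panel per gene; colours are probe sets and dotted lines are the 20th percentile of their chip. Id1 stands at 1541, 1201 and 926 units in Pr-HP, C4-HP and C4-LP and at 121 in Pr-LP, while both Neurod1 probe sets are highest in Pr-LP and lowest in Pr-HP.

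Among the inhibitors, *Id1* set Pr-LP apart from the other 3 populations. *Id1*, a short gene on chromosome 2 (152736251 to 152737410), had 1541 units in Pr-HP, 1201 in C4-HP, 926 in C4-LP and 121 in Pr-LP (1 probe set, chip A). The value in Pr-LP was above the floor but under the chip's 40th percentile of 152.7 units. The 3 high values thus stood together, well apart from Pr-LP. Pr-HP had 12.7-fold the *Id1* intensity of Pr-LP, and 10 of the 23340 tested probe sets (0.0428%, *Id1* included) had a ratio as high or higher. C4-LP had 7.64-fold the intensity of Pr-LP at the same passage number, and 8 probe sets (0.0343%) were as high or higher. High over low passage within clone 4 came to 1.3-fold, and Pr-HP over C4-HP to 1.28-fold. Each of these ratios compares 2 arrays and has no test.

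*Id3*, on chromosome 4 (136143822 to 136145392), had 1402 units in Pr-HP, 943 in C4-HP, 649 in C4-LP and 412 in Pr-LP (chip A), the same order as *Id1* but in even steps. Pr-HP had 3.4-fold the intensity of Pr-LP, a ratio that 101 tested probe sets (0.433%) reached. High passage was above low passage in clone 4 as well, by 1.45-fold, and clone 4 was above parental cells at low passage, by 1.57-fold. The order Pr-HP, C4-HP, C4-LP, Pr-LP from high to low held for 1345 tested probe sets (5.76%). With 1 array per population, neighbours in such an order cannot be tested against each other.

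*Id2*, on chromosome 12, had 1107 units in Pr-HP, 1956 in C4-HP, 1433 in C4-LP and 961 in Pr-LP (chip A). Both clone 4 arrays were thus above both parental arrays, and Pr-HP lay inside the range of the responder cells. The share of all tested probe sets with such a split by clone was not counted. The mean of the clone 4 arrays was 1.76-fold that of Pr-LP, and Pr-HP was 1.77-fold lower than C4-HP. *Id4*, on chromosome 13, had 99.1 units in Pr-HP, 111 in C4-HP, 117 in C4-LP and 146 in Pr-LP (chip A). It stayed under the chip's 40th percentile in every population and was not tested.

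In the limma test of Pr-HP against the 3 responder populations, no *Id* gene passed an adjusted p of 0.05. *Id1* had a log2 difference of 1.59 (SE 1.5, limma adjusted p = 0.793), with a mean of 749 ± 561 units in the responder cells (SD, n = 3). Without Pr-LP the *Id1* difference was 0.55 (adjusted p = 0.553). *Id3* had a difference of 1.15 (SE 0.50, limma adjusted p = 0.575), with 1402 units in Pr-HP and 668 ± 266 units in the responder cells (SD, n = 3). *Id2* had a difference of -0.33 (adjusted p = 0.857), which was 0.20 with parental or clone 4 origin as a block. Over all tested probe sets this test called 15 higher in Pr-HP (0.0643%) and 4 lower (0.0171%), and 1281 (5.49%) and 1004 (4.3%) at an unadjusted p of 0.05. With C4-HP, C4-LP or Pr-LP left out, the calls were 0, 1 and 0 higher and 0, 2 and 0 lower.

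In the comparison of clone 4 with parental cells, with 2 arrays on each side, *Id2* had a log2 difference of 0.70 (SE 0.20, limma adjusted p = 0.924). *Id1* had a difference of 1.29 (SE 1.31, adjusted p = 0.978), which turned to -0.55 without Pr-LP. *Id3* had a difference of 0.04 (adjusted p = 0.998). In the comparison of high with low passage, *Id1* had a difference of 2.02 (SE 1.05, limma adjusted p = 0.998) and *Id3* of 1.15 (SE 0.32, limma adjusted p = 0.998). Without Pr-LP these passage differences were 0.56 for *Id1* and 0.83 for *Id3*. These limma fits called 0 probe sets for clone (0%) and 0 for passage (0%). At an unadjusted p of 0.05 they had 744 higher (3.19%) and 485 lower (2.08%) in clone 4, and 403 higher (1.73%) and 500 lower (2.14%) at high passage.

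*Neurod1* ran the other way in the parental cells. *Neurod1*, on chromosome 2 (79452637 to 79456636), is measured by probe sets on 2 chips. The probe set on chip A had 184 units in Pr-HP, 368 in C4-HP, 307 in C4-LP and 444 in Pr-LP. The probe set on chip B had 211 units in Pr-HP, 288 in C4-HP, 264 in C4-LP and 604 in Pr-LP. Its name carries the mark i, one of the letters (f, i, r and s) by which the manufacturer flags probe sets that depart from its design rules or match several transcripts. Both thus gave the order Pr-LP, C4-HP, C4-LP, Pr-HP from high to low, and Pr-HP did not overlap with the responder cells in either. Of all tested probe sets, Pr-HP was below all 3 responder populations in 28.2% and above all 3 in 29.5%, so that the lack of overlap by itself is common.

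The size of the *Neurod1* difference depended on the responder population. Pr-HP was 2.42-fold lower than Pr-LP by the chip A probe set and 2.86-fold lower by the chip B probe set, and 0.805% and 0.527% of tested probe sets had a ratio as low. Against C4-HP, Pr-HP was 2.01-fold lower by the chip A probe set and 1.37-fold lower by the chip B probe set. C4-LP was 1.45-fold and 2.29-fold lower than Pr-LP by the same probe sets. Within clone 4, high passage was 1.2-fold and 1.09-fold the low passage value. In limma, Pr-HP minus the responder cells gave -1.01 on chip A (SE 0.24, adjusted p = 0.373) and -0.76 on chip B (SE 0.54, adjusted p = 0.72). The responder mean was 373 ± 68.7 units on chip A and 385 ± 190 units on chip B (SD, n = 3), against 184 and 211 units in Pr-HP. Without Pr-LP the chip B difference was -0.39 (adjusted p = 0.471). For clone 4 minus parental cells the probe sets differed in sign, at 0.24 and -0.37 (adjusted p = 0.991 and 0.985). For high minus low passage they gave -0.51 and -0.70 (adjusted p = 0.998 for both). The chip A value was -0.00 without Pr-HP, and the chip B value was -0.10 without Pr-LP.

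**Figure D2:**
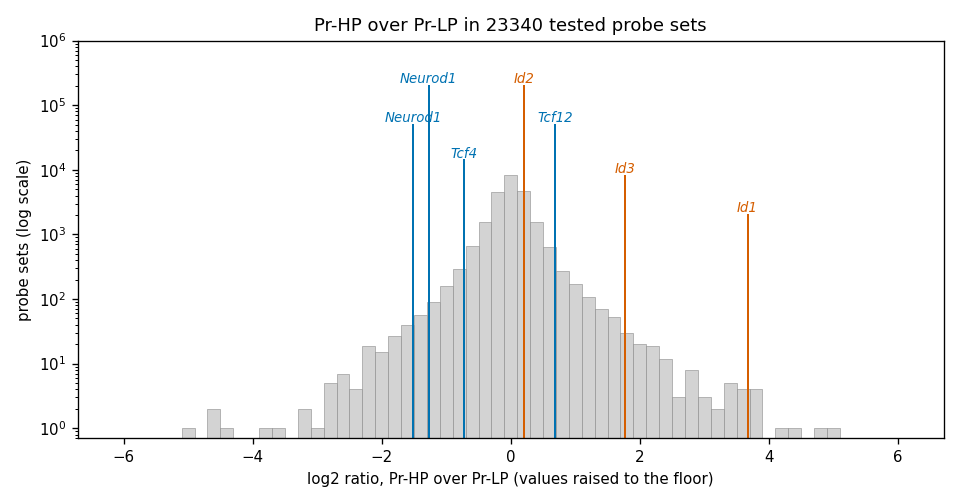
Histogram of the log2 ratio of Pr-HP over Pr-LP in the 23340 tested probe sets (probe sets per bin, log scale), with lines at Neurod1 (-1.27 and -1.52), Id3 (1.77) and Id1 (3.67), and at Id2 and 1 probe set each of Tcf4 and Tcf12; line heights only keep the names apart. Blue lines are activators and orange lines are inhibitors.

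The E proteins, the dimer partners that Id proteins bind, spanned a narrower range than *Neurod1*, *Id1* and *Id3*. *Tcf3*, which encodes E12 and E47, had 404 units in Pr-HP, 412 in C4-HP, 389 in C4-LP and 453 in Pr-LP (chip A). Its second probe set had 394, 472, 420 and 454 units in Pr-HP, C4-HP, C4-LP and Pr-LP (chip C, mark r). The highest and lowest population of *Tcf3* differed by 1.16-fold and 1.2-fold in these probe sets, and the limma differences for Pr-HP were -0.05 and -0.19 (adjusted p = 0.943 and 0.647).

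*Tcf4*, which encodes E2-2, had 138 units in Pr-HP, 195 in C4-HP, 256 in C4-LP and 199 in Pr-LP (chip A). Its brighter probe set on chip B had 319 units in Pr-HP, 376 in C4-HP, 533 in C4-LP and 528 in Pr-LP. A dimmer one on chip B was at 53.9, 57.3, 64.2 and 58.4 units in Pr-HP, C4-HP, C4-LP and Pr-LP (floor 58.63) and was not tested. Both tested probe sets gave the order C4-LP, Pr-LP, C4-HP, Pr-HP from high to low, so that both high-passage arrays were below both low-passage arrays. On chip A this split rests on 195 units in C4-HP against 199 in Pr-LP. How many of all tested probe sets are split in this way was not counted. The untested probe set on chip B had 3 of its 4 values under the floor, and no order is read from it. High minus low passage was -0.62 for the brighter probe set on chip B in limma (SE 0.13, adjusted p = 0.998). Pr-HP minus the responder cells was -0.64 on chip A (SE 0.21, adjusted p = 0.475) and -0.57 for the brighter probe set on chip B (SE 0.25, adjusted p = 0.573).

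*Tcf12*, which encodes HEB, was the E protein gene with its highest value in Pr-HP. It had 741 units in Pr-HP, 532 in C4-HP, 523 in C4-LP and 460 in Pr-LP (chip A, mark s), which puts Pr-HP 1.47-fold above the responder mean of 505 ± 38.9 units (SD, n = 3). The limma difference was 0.56 (SE 0.14, adjusted p = 0.381). A dimmer probe set had 70.0 units in Pr-HP, 67.0 in C4-HP, 64.9 in C4-LP and 51.2 in Pr-LP (chip C), with a difference of 0.21 (adjusted p = 0.774). Both had the order of *Id1* and *Id3*. The dimmer one passed the filter (66.49 units on chip C) only through Pr-HP and C4-HP, where it was highest. Its order is therefore not counted as support. With the floor at the 40th percentile its log2 ratio of Pr-HP over Pr-LP was 0.07, against 0.45 with the main floor.

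**Figure D3:**
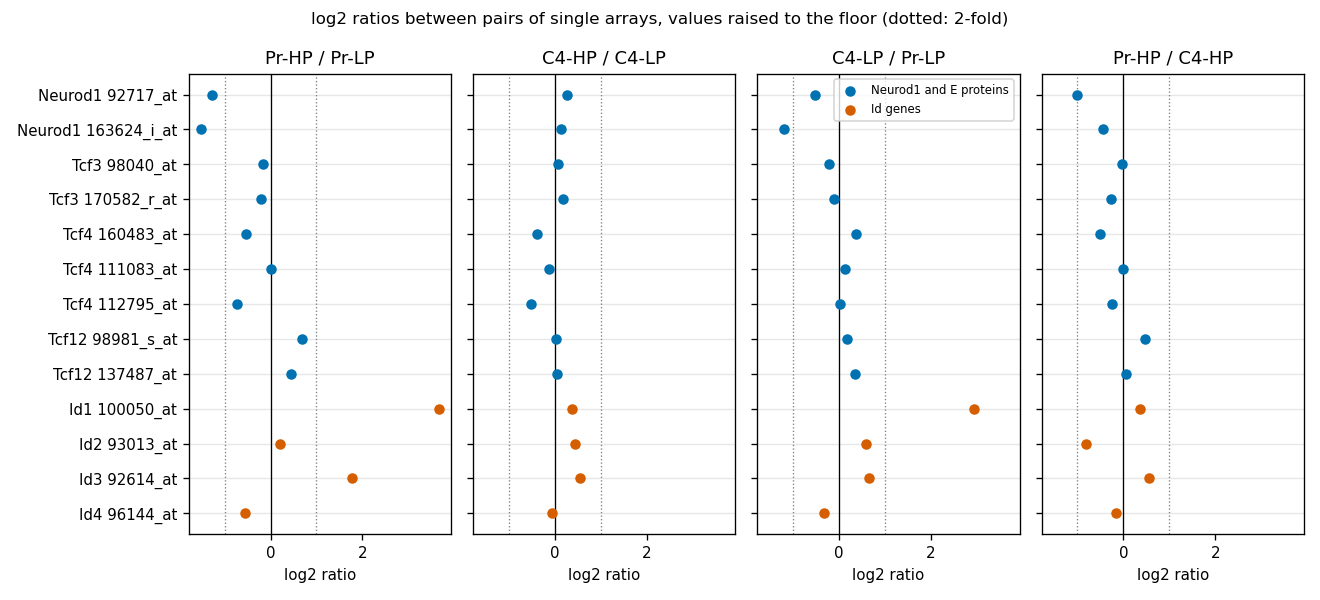
Log2 ratios between pairs of single arrays for the 13 probe sets (values raised to the floor; dotted lines at 2-fold), with Neurod1 and the E proteins in blue and the Id genes in orange. In Pr-HP over Pr-LP, Id1 and Id3 lie to the right of 2-fold and both Neurod1 probe sets to the left, and in C4-HP over C4-LP every probe set lies within 2-fold.

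Set against each other, the medians of the tested activators and the tested inhibitors lay on opposite sides of 0 in Pr-HP over Pr-LP. The 3 tested *Id* genes had a median log2 ratio of 1.77, the 8 tested activator probe sets of -0.37, and all tested probe sets of 0.00. More than 2-fold higher, with at least 100 units on the higher side, were 2 inhibitors (*Id1* and *Id3*) and 0 activators, against 1.74% of all tested probe sets. More than 2-fold lower were 2 activator probe sets, both of *Neurod1*, and 0 inhibitors, against 1.37% of all. The split was not one of classes as a whole, since *Tcf12* on chip A was 1.61-fold higher in Pr-HP, and *Id4*, which was not tested, was 1.47-fold lower. The dim *Tcf12* probe set on chip C was 1.37-fold higher, but it passed the filter only through the high-passage arrays. In C4-HP over C4-LP the medians were 0.45 for the inhibitors and 0.06 for the activators, and no probe set passed 2-fold, against 0.39% higher and 0.891% lower of all.

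Among the responder populations, C4-LP over Pr-LP gave medians of 0.65 for the inhibitors and -0.05 for the activators. *Id1* was past 2-fold higher, against 1.66% of all tested probe sets, and *Neurod1* on chip B past 2-fold lower, against 0.938%. With the mean of both clone 4 arrays over Pr-LP, *Id1* was 8.78-fold higher, a ratio that 4 tested probe sets (0.0171%) reached, and *Neurod1* on chip B 2.19-fold lower (background 0.964% higher and 0.527% lower). In Pr-HP over C4-HP the inhibitor median was 0.36 and the activator median -0.25. Only *Neurod1* on chip A passed 2-fold there, at a log2 ratio of -1.0, against 1.05% lower and 1.44% higher of all, and it was just inside 2-fold once arrays were rescaled. The comparisons with Pr-LP share its arrays, so their values are not independent of each other.

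In the limma test of Pr-HP against the responder cells the medians were 1.15 for the 3 inhibitors, -0.38 for the 8 activator probe sets and -0.00 for all tested probe sets. No member of the 11 passed the adjusted threshold, and 3 activator probe sets (*Neurod1*, *Tcf4* and *Tcf12*, each on chip A) and 0 inhibitors had an unadjusted p under 0.05, against 9.79% of all tested probe sets. Over all 4 populations, 5 of the 11 spanned more than 2-fold (*Neurod1* on both chips, *Id1*, *Id2* and *Id3*), against 6.49% of all tested probe sets, with *Id2* just past it at 2.03-fold. The genes were chosen with earlier results of these data known, and *Neurod1* is counted by both its probe sets. No excess over all tested probe sets is therefore read from the counts here and above.

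The genes nearest in pattern to each probe set that spanned more than 2-fold were found by the distance between log2 values over the 4 populations, each centred on its own mean, among at least 1413 probe sets of other genes. Over 4 points many genes share a pattern, and nearness says nothing of shared function or control. *Neurod1* on chip A was nearest to *Ccdc88a* (distance 0.10), *Prkar2b* (0.11), *Ociad2* (0.12), *Scly* (0.13) and *Tut4* (0.18). *Neurod1* on chip B was nearest to *Gpr85* (0.11), *Pla2g2d* (0.13), *C1galt1* (0.16), *Mboat2* (0.17) and *Rph3al* (0.19), while the *Neurod1* probe sets lay 0.64 apart. *Rph3al*, which encodes Noc2, a factor in hormone granule release, had 413 units in Pr-HP, 632 in C4-HP, 486 in C4-LP and 1263 in Pr-LP.

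*Id1* had no close neighbour. The nearest were *Rtn1* (0.94), *Gcg* (1.08), *Slc39a8* (1.12), *AI662270* (1.29) and *Nrcam* (1.41), and *Id3* lay 1.84 from it. *Id3* was nearest to *Ttc9b* (0.28), *Elovl7* (0.29), *Tmem47* (0.30), *Pde4b* (0.31) and *Adam9* (0.34). *Pde4b*, a phosphodiesterase that breaks down cyclic AMP, had 1317 units in Pr-HP, 820 in C4-HP, 757 in C4-LP and 399 in Pr-LP. *Id2* was nearest to *Tmem167*, by its probe sets on chips C and B (0.12 and 0.23), *Scamp1* (0.23), *Spred1* (0.27) and *Dusp9* (0.29).

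**Figure D4:**
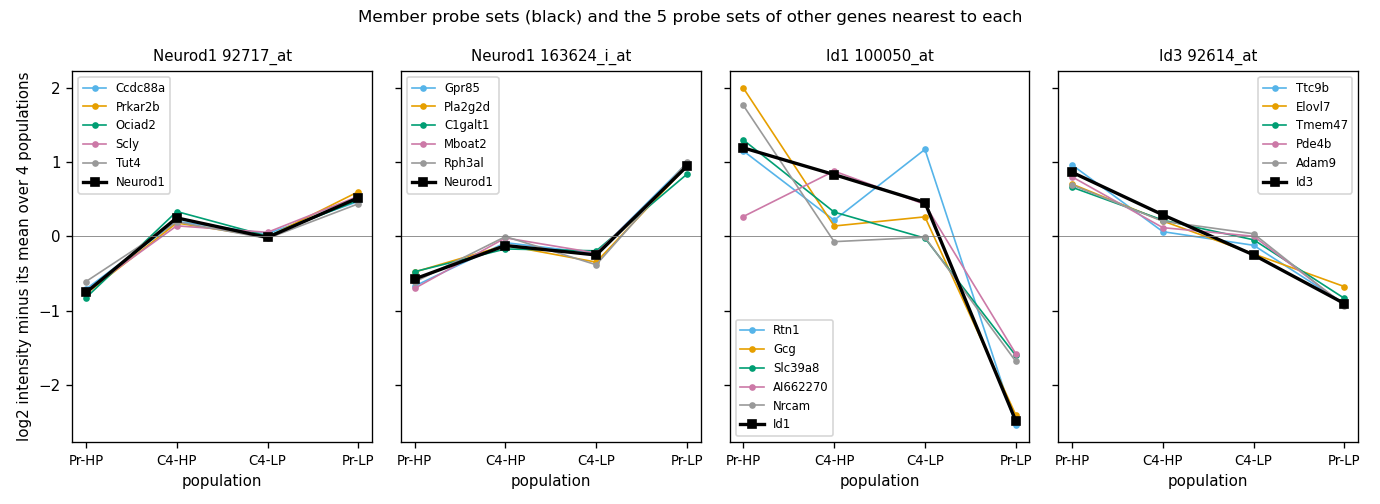
Log2 intensity minus its mean over the 4 populations for Neurod1 on chips A and B, Id1 and Id3 (black squares) and the 5 probe sets of other genes nearest to each (coloured points); lines join the points of a probe set, and the populations have no order. The neighbours of Neurod1 lie within a distance of 0.19 and those of Id1 between 0.94 and 1.41.

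Of 17 genes listed as bound by NEUROD1, 14 were measured and tested. Binding was not measured here, and it was not checked that each listed gene is bound in islet cells. In Pr-HP minus the responder cells, 10 of the 14 lay below and 4 above 0. Of all tested probe sets, 11762 lay below 0 (50.4%) and 11578 above. The median of the 14 was -0.23 (all tested probe sets: -0.00), and 11 had a limma log2 difference within 1 either way, which is meant by within 2-fold for the lists that follow. Limma called 0 higher and 0 lower, and 4 of the 14 had an unadjusted p under 0.05, against 9.79% of all. *Nnat*, an imprinted gene whose product aids insulin secretion, had 144 units in Pr-HP, 1976 in C4-HP, 1285 in C4-LP and 2891 in Pr-LP, 14.2-fold lower in Pr-HP than in the responder mean (log2 difference -3.75, limma adjusted p = 0.191). *Insm1*, a zinc-finger factor of endocrine cells, had 489 units in Pr-HP, 1078 in C4-HP, 987 in C4-LP and 1359 in Pr-LP (-1.21, adjusted p = 0.285). *Kcnj11*, the pore of the ATP-sensitive potassium channel, had 644 units in Pr-HP, 933 in C4-HP, 1171 in C4-LP and 816 in Pr-LP (-0.58, adjusted p = 0.557). Its probe set on chip C had 483 units in Pr-HP, 967 in C4-HP, 1074 in C4-LP and 900 in Pr-LP, again lowest in Pr-HP.

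The insulin gene *Ins2* had 15526 units in Pr-HP, 14920 in C4-HP, 15461 in C4-LP and 14771 in Pr-LP, on a probe set with the mark f. At this brightness differences may be compressed, so no difference is read from these values. *Pdx1*, a homeobox factor of β cells, had 519 units in Pr-HP, 570 in C4-HP, 592 in C4-LP and 701 in Pr-LP (-0.25, adjusted p = 0.698). *Gcg*, whose promoter with 3 E boxes is given above, had 10552 units in Pr-HP, 2915 in C4-HP, 3175 in C4-LP and 502 in Pr-LP (2.66, adjusted p = 0.562). Its other probe set had 2244, 275, 346 and 50.6 units in Pr-HP, C4-HP, C4-LP and Pr-LP. Of the other alpha-cell markers measured, *Ttr* had 248 units in Pr-HP, 1362 in C4-HP, 3135 in C4-LP and 435 in Pr-LP, and *Irx2* lay between 42.3 and 81.9 units around its floor of 58.6. The summed level of the 3 measured of 5 listed alpha-cell markers was 10842 units in Pr-HP, 4345 in C4-HP, 6391 in C4-LP and 985 in Pr-LP. In Pr-HP this sum came almost wholly from *Gcg*, while *Ttr* was lowest there. The sum and *Gcg* were lowest in Pr-LP, as *Id1* was, but *Ttr* was not. The part of these markers in the *Id1* values was not tested.

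Of 33 genes of the BMP pathway, through which *Id* genes are commonly switched on, 29 were measured and 24 tested. All 24 were within 2-fold in Pr-HP minus the responder cells, with a median of -0.08. Of them, 7 lay above and 17 below 0, against 50.4% below 0 of all tested probe sets. There was no limma call, and 1 of the 24 had an unadjusted limma p under 0.05, against 9.79% of all. *Smad7*, an inhibitory SMAD that is itself a BMP and TGF-β target, had 497 units in Pr-HP, 338 in C4-HP, 348 in C4-LP and 311 in Pr-LP (0.58, adjusted p = 0.333). *Smad6*, the other inhibitory SMAD, had 194 units in Pr-HP, 180 in C4-HP, 167 in C4-LP and 181 in Pr-LP (0.14, adjusted p = 0.748). *Bambi*, a decoy receptor, had 137 units in Pr-HP, 130 in C4-HP, 194 in C4-LP and 440 in Pr-LP (-0.71, adjusted p = 0.813, 1 probe set). It was highest in Pr-LP, where *Id1* was lowest, and any link between them was not tested. *Twsg1*, which binds BMPs outside the cell, had 1049 units in Pr-HP, 1007 in C4-HP, 1138 in C4-LP and 1718 in Pr-LP (-0.26, adjusted p = 0.856), and its chip A probe set had 682, 611, 684 and 824 units in Pr-HP, C4-HP, C4-LP and Pr-LP. *Bmp4* had 287 units in Pr-HP, 231 in C4-HP, 251 in C4-LP and 272 in Pr-LP (0.19, adjusted p = 0.724). Its chip B probe set lay on the other side, with 173 units in Pr-HP, 210 in C4-HP, 198 in C4-LP and 180 in Pr-LP.

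Of 44 other basic helix-loop-helix genes, 40 were measured and 28 tested, all within 2-fold, with a median of -0.03. Of the 28, 12 lay above and 16 below 0, against 50.4% below 0 of all tested probe sets. There was no limma call, and 3 of the 28 had an unadjusted limma p under 0.05, against 9.79% of all. The largest differences were those of a pair of repressors. *Hey1*, a Notch target, had 695 units in Pr-HP, 384 in C4-HP, 430 in C4-LP and 336 in Pr-LP (0.87, adjusted p = 0.327), while its dimmer probe set had 71.8 units in Pr-HP, 77.1 in C4-HP, 78.1 in C4-LP and 68.7 in Pr-LP. *Bhlhe40* had 250 units in Pr-HP, 136 in C4-HP, 131 in C4-LP and 139 in Pr-LP (0.88, adjusted p = 0.165). *Msc*, a repressor known from muscle precursors, had 138 units in Pr-HP, 169 in C4-HP, 204 in C4-LP and 211 in Pr-LP (-0.49, adjusted p = 0.457), while its other probe sets lay between 55.6 and 123 units. *Neurog3*, the islet progenitor factor upstream of *Neurod1* in development, had 199 units in Pr-HP, 202 in C4-HP, 207 in C4-LP and 185 in Pr-LP (0.01, adjusted p = 0.992), and its chip C probe set had 192, 204, 192 and 177 units in Pr-HP, C4-HP, C4-LP and Pr-LP.

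Of 16 cofactors of E proteins, 15 were measured and 13 tested, all within 2-fold, with a median of -0.04. Of the 13, 3 lay above and 10 below 0, against 50.4% below 0 of all tested probe sets. There was no limma call, and 0 had an unadjusted limma p under 0.05, against 9.79% of all. *Lmo1*, a LIM-only bridge between helix-loop-helix complexes and other factors, was split by clone, with 492 units in Pr-HP, 1186 in C4-HP, 1327 in C4-LP and 530 in Pr-LP. In Pr-HP it was 2.06-fold lower than the responder mean on the linear scale, with a limma difference of -0.94 (adjusted p = 0.695). Its clone 4 minus parental difference was 1.30 (limma adjusted p = 0.823), and no gene of the 4 lists passed that test or the passage test. *Cbfa2t2*, a corepressor of the ETO family that E proteins recruit, had 268 units in Pr-HP, 397 in C4-HP, 373 in C4-LP and 313 in Pr-LP (-0.42 in Pr-HP minus responder cells, adjusted p = 0.56), and its dimmer probe set lay between 84.9 and 109 units. *Kat2b*, an acetyltransferase, had 460 units in Pr-HP, 347 in C4-HP, 343 in C4-LP and 408 in Pr-LP (0.33, adjusted p = 0.59), while its other probe set was under the floor.

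**Figure D5:**
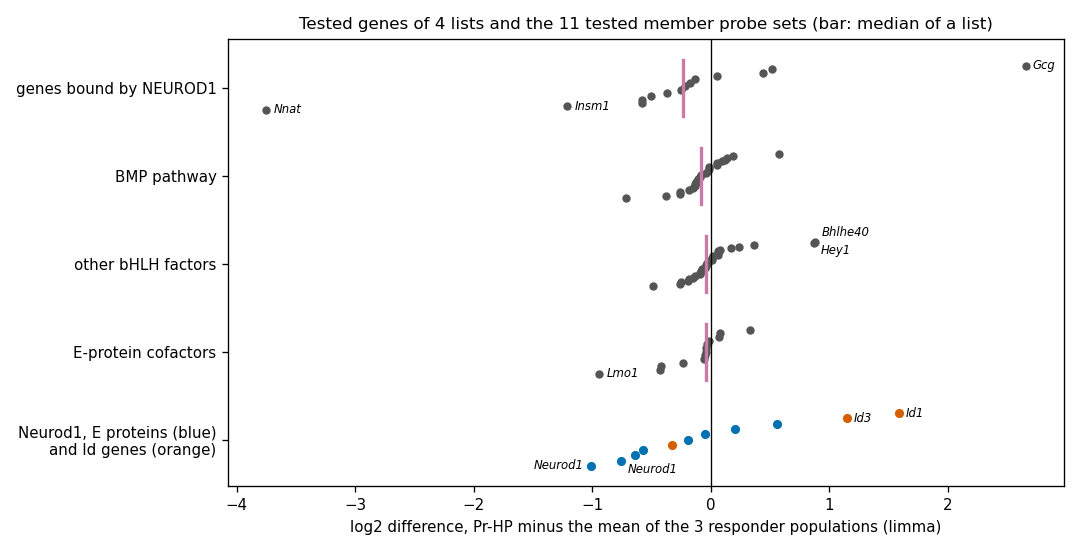
Log2 difference of Pr-HP minus the mean of the 3 responder populations (limma) for each tested gene of the 4 lists (grey points, 1 per gene; pink bar, median of the list) and for the 11 tested probe sets of Neurod1, the E proteins and the Id genes. Most points lie near 0; Nnat is at -3.75, Gcg at 2.66, Id1 at 1.59 and Id3 at 1.15, and none of the points shown passed the adjusted threshold.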

How the data were processed

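The authors deposited 1 intensity per probe set and array on a linear scale, and the methods of the study name the GeneChip 5.1 software. The study's list of responder and non-responder genes prints other values for *Nnat* and for the dimmer *Gcg* probe set. The deposited values were used here. The sources used here do not say how probes were summarised or arrays normalized. Array medians were near-equal, so no scaling was applied. The platform annotation gave 1 symbol to 29131 probe sets, several to 724 and none to 6846, and 198 controls were left out. In limma 3.58.1 (R 4.3.3), lmFit and eBayes were run within each chip on floored log2 values with 2 residual degrees of freedom, and Benjamini-Hochberg adjustment covered the 3 chips. The fit was tested on simulated data. No source says how many cultures an array represents. Each p-value rests on the spread between arrays of different populations on the same side of a contrast, and their number limits precision. In the Pr-HP contrast these are the 3 responder populations. That spread can hold differences between populations, such as passage or clone, as well as array noise.

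Every probe set of the 8 genes is reported. A listed gene was represented by its brightest probe set, and up to 4 per list with the largest difference in the Pr-HP or the clone contrast could be named. *Ins2*, *Pdx1*, *Smad6* and *Neurog3* were named after their values were seen. The members and lists were chosen with earlier results of these data known. Alternatives were other floors, no filter, quantile normalization, equal medians, each population left out, and origin or passage as a block.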

Additional observations from a re-analysis of the deposited data

Results flagged for a closer look

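For 4 probe sets the ratio of high over low passage had opposite signs in parental and clone 4 cells. How many of all tested probe sets do so was not counted. Of 23340 tested probe sets, the parental ratio was above 0 in 11750 and below 0 in 11579. The clone 4 ratio was above 0 in 11899 and below 0 in 11411, so that a sign by itself says little. Each ratio comes from 1 array over 1 array, and the difference between parental and clone 4 ratios was not tested. *Neurod1* on chip A had a log2 ratio of 0.26 in clone 4 cells and -1.27 in parental cells. *Neurod1* on chip B had 0.13 in clone 4 cells and -1.52 in parental cells. *Tcf3* on chip A had 0.08 in clone 4 cells and -0.17 in parental cells. *Tcf3* on chip C had 0.17 in clone 4 cells and -0.20 in parental cells.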

How the results depend on the processing

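Limma differences of the family kept their sign in 299 recomputations, turned to the opposite sign in 19 and became 0.00 in 1. Log2 ratios of pairs kept their sign and their side of 2-fold in 240, slipped inside 2-fold in 2, were 0.00 before or after in 17, each time for a dim probe set of *Id4*, *Tcf4* or *Tcf12*, and turned sign in 1 (*Tcf3* on chip C, mean of clone 4 over Pr-LP, 0.01 under quantile normalization against -0.03). No probe set of the family passed an adjusted p of 0.05 in limma under any alternative run. Over all probe sets, the 15 calls higher and 4 lower in Pr-HP became 0 and 0 with the floor at the 40th percentile, 101 and 7 with no filter, 0 and 0 with parental or clone 4 as a block, and 0 to 1 and 0 to 2 with each responder population left out. With the floor at 1.0 unit 26 were called higher. *Neurod1* on chip A in Pr-HP over C4-HP was -1.0 under quantile normalization and -0.99 with equal medians, so that 0 probe sets of the family were then past 2-fold lower. With single populations left out, the clone 4 minus parental difference ranged between -0.55 and 3.12 for *Id1*, -0.84 and 0.92 for *Id3*, -0.40 and 0.87 for *Neurod1* on chip A, -1.13 and 0.39 for *Neurod1* on chip B, -0.49 and 0.20 for *Tcf12* on chip A, -0.09 and 0.36 for *Tcf12* on chip C, -0.03 and 0.18 for *Tcf3* on chip C, and -0.24 and 0.49 for *Tcf4* on chip B. High minus low passage ranged between -0.08 and 0.74 for *Id2*, -0.15 and 0.07 for *Tcf3* on chip A, and -0.15 and 0.11 for *Tcf3* on chip C. Pr-HP minus the responder cells ranged between -0.10 and 0.01 for *Tcf3* on chip A. Other limma reversals were *Id2* in that contrast with the block (0.20), *Tcf12* on chip C for clone 4 with the floor at the 40th percentile (-0.03) and *Tcf3* on chip C for passage under quantile normalization (0.01). The cause of these changes was not tested. A side left with 1 array is assumed to vary like the others. With passage or origin as a block, 1 residual degree of freedom was left, and limma called 0 probe sets for clone and 0 for passage.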
